A study of Homo sapiens with 7 samples.

Results

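Aminoacyl-tRNA synthetases, the enzymes that join each amino acid to its transfer RNA (tRNA), were followed together with the scaffold proteins of their multi-enzyme complex. The members were chosen by name: 19 cytosolic enzymes, 3 scaffold proteins and 16 mitochondrial enzymes, 38 genes in all. Of these, 33 were read by 70 probe sets that the platform annotation assigned to that gene alone, out of 41097 probe sets assigned to 1 gene and 19775 genes on the arrays. MARS1, QARS1 and TARS2 were annotated only jointly with a microRNA gene and were left out, and AIMP2 and EEF1E1 were not analysed here. The brightest probe set of each of the 33 members had a mean signal above the filter of 269 used for all comparisons, so no member was lost to it.

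The cells were HT1080, an established human fibrosarcoma line, on 7 arrays of 1 culture each. Catechin was present in 1 culture at 11.25 ng/ml, both epicatechin and taxifolin, each in a culture of its own, at 6.25 ng/ml, and resveratrol in 1 at 2195 ng/ml, all for 2 h. One more culture had 5% control serum and another 5% serum of patients who had taken pycnogenol, a pine bark extract, both for 2 h, and the last was untreated. The cells were maintained in medium with fetal bovine serum and non-essential amino acids. The labels do not say whether a serum came from 1 person or a pool, where the control serum came from, or whether the untreated culture had the medium change. With 1 array a group there was no replicate, so no difference has a p-value, and every value describes these arrays. The 5 arrays without test serum held 5 different treatments, and their spread is given in place of a replicate error.

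Cytosolic synthetases feed the ribosomes of the cytoplasm, while a separate nuclear-encoded set is imported into mitochondria. GARS1 and KARS1 are known to supply both places. When an amino acid runs short, uncharged tRNA activates the kinase GCN2 (gene EIF2AK4), and the transcription factor ATF4 is then made. ATF4 is known to raise many cytosolic synthetase genes along with amino acid transporters and synthesis enzymes. The 19 cytosolic enzymes were therefore split by textbook knowledge into 12 known ATF4 targets and 7 others. This split was made with earlier results of these data known.

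The median signal of an array ran from 114 to 136, the ratio of 3′ to 5′ control probe sets from 0.961 to 1.12 for GAPDH and from 2.40 to 4.02 for ACTB. Both serum arrays lay inside the range of the other 5 for these ratios, at 1.06 and 1.09 for GAPDH and 2.55 and 2.82 for ACTB, while their median signals, 114 and 118, lay below the range of 121 to 136. Centring each array on its median, given below as an alternative scaling, removes that difference. Of 8 mesenchymal markers 7 were above the signal filter, and no epithelial (of 5) or endothelial (of 4) marker was. Of 5 measured blood cell markers only HBB was above the filter, at 227 to 413 without and at 382 and 522 with test serum. The summed endothelial signal was 338 and 483 in the serum arrays against 271 to 359 in the others. The summed blood marker signal ran from 459 to 685 in the 5 arrays and was 631 and 782 in the serum arrays. The part of these markers in the results was not tested. In RNA from whole cultures, fewer cells expressing a gene and less RNA per cell cannot be told apart.

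Both serum arrays read lower than all the others for most known ATF4 target synthetases. Of the 11 measured targets, 8 had both serum arrays below all 5 arrays without test serum: AARS1, CARS1, EPRS1, GARS1, IARS1, NARS1, SARS1 and WARS1. Among all 9888 genes compared, 16.1% lay that way, and 13.5% had both serum arrays above the 5. No target lay above. The difference between the mean log2 signal of both serum arrays and that of the other 5 was below 0 for 10 of 11 targets. Its median was -0.21, while all genes had a median of -0.010 with 51.9% below 0. The differences were small, none at 2-fold, where 0.708% of all genes were.

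AARS1, which charges tRNA with alanine, read 10315 in the untreated culture, 9667 with catechin, 10685 with epicatechin, 9844 with taxifolin and 9599.7 with resveratrol. Control serum gave 7947 and pycnogenol serum 6807, so both serum arrays lay under the lowest of the others. The serum difference was -0.45 on the log2 scale, a ratio of 0.734, where the 10 pairs among the 5 other arrays differed by 0.094 as a root mean square. CARS1, the cysteine enzyme, read 25724 untreated and 24075, 25031, 25012 and 23215 with catechin, epicatechin, taxifolin and resveratrol. Its signals of 19972 (control serum) and 17896 (pycnogenol serum) were lower, again with no overlap, and differed by -0.38 against a root mean square of 0.082. WARS1, the tryptophan enzyme, read 7309 untreated and 7626, 7578, 8209 and 7576 with the compounds in the same order. Its signals of 6234 and 5622 with control and pycnogenol serum gave a difference of -0.37 against 0.087.

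The other 5 targets without overlap had serum differences of -0.36 for EPRS1, which carries the glutamate and proline activities in 1 protein, -0.28 for the serine enzyme SARS1, -0.20 for the glycine enzyme GARS1, and -0.15 for both IARS1 (isoleucine) and NARS1 (asparagine). TARS1, the threonine enzyme, was at -0.14 and the tyrosine enzyme YARS1 at -0.21, both with overlap. For TARS1 the catechin array, at 21892, lay below control serum at 22488, and for YARS1 the epicatechin array, at 12322, lay below pycnogenol serum at 12578. LARS1, the leucine enzyme, was the exception to the direction, at 0.15, with 13926 in control serum and 11226 in pycnogenol serum against 9691 to 12177 in the others. The 5 arrays without test serum spanned narrow ranges for the targets, with a median range of 0.17 on the log2 scale, where all genes had 0.32.

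**Figure D1:**
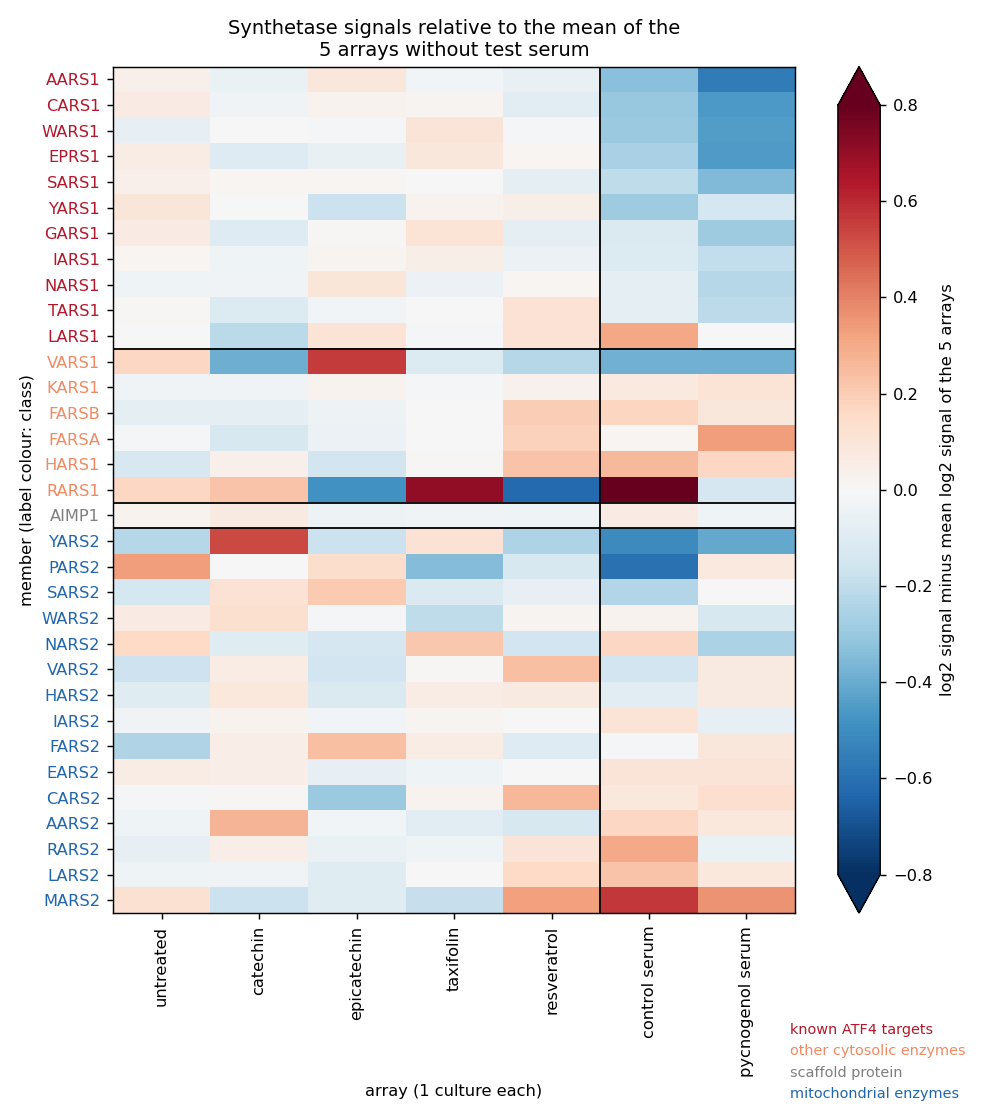
Log2 signal of 33 members in each of the 7 arrays (columns, 1 culture each) relative to the mean of the 5 arrays without test serum, with members grouped by class and ordered by their serum difference. The known ATF4 targets are blue in both serum columns except LARS1, while RARS1 and VARS1 vary most among the 5 columns on the left; the colour scale ends at 0.8, and RARS1 with control serum lies beyond it.

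The count depended on the scaling of the arrays. With each array centred on the median of all probe sets, the median of all genes in this comparison moved from -0.010 to 0.11, and 3 targets were left without overlap, AARS1, EPRS1 and WARS1, against 6.12% of all genes lower and 26.4% higher. Relative to the median of all genes the targets' median was -0.20. Centring shifts all genes of an array alike, so that value could not change with it.

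Most further probe sets of the targets had the same direction. Of 21 target probe sets above the filter, 20 had a serum difference below 0 and 11 had both serum arrays below the 5 others. These include the main probe sets already counted by gene, 8 of them among the 11. The 1 above 0 was the main probe set of LARS1, whose 3 other probe sets were at -0.09, -0.17 and -0.13. A second SARS1 probe set differed more than the first: it read 6775 untreated, 5679 with catechin, 6715 with epicatechin, 6862 with taxifolin and 5807 with resveratrol, but 3535 with control serum and 1893 with pycnogenol serum. Its serum difference was -1.29, where the main SARS1 probe set, with 12199.6 untreated, 10309 with control serum and 9266 with pycnogenol serum, gave -0.28. For CARS1 the other 3 probe sets were at -0.60, -0.40 and -0.85, and for WARS1 the second was at -0.07. Over all members, 16 had at least 2 probe sets above the filter, and the second had the direction of the first in 14. The exceptions were LARS1 and CARS2. For the counts of probe sets here and below, no share over all genes or probe sets was computed.

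**Figure D2:**
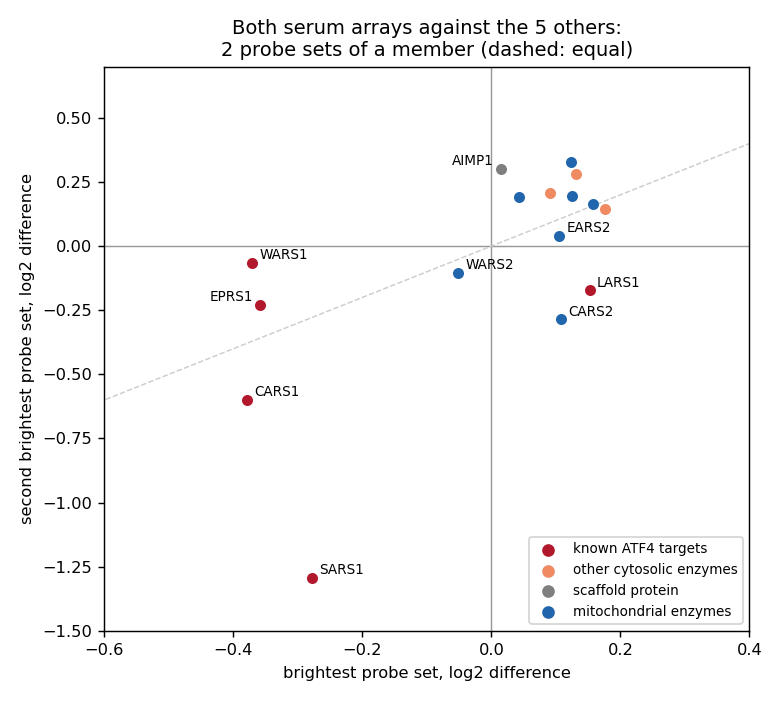
Serum difference (log2, both serum arrays minus the 5 others) of the second brightest probe set against that of the brightest, for the 16 members with 2 probe sets above the filter. SARS1, CARS1, EPRS1 and WARS1 lie at the lower left, with SARS1 at -1.29 on its second probe set, and LARS1 and CARS2 lie to the right of 0 but below it.

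The core of the C/EBP-ATF response element, the composite site that ATF4 and its partners are known to bind, was looked up in the promoters because the targets differed together. RefSeq windows from 250 bases before to 50 bases after the gene start (GRCh38.p14) were at hand for 33 of the 38 members, measured or not. The letters TGATGNAA, searched on both strands and with overlapping matches allowed, stood in 7 of 10 known ATF4 targets with a window: AARS1, CARS1, GARS1, IARS1, MARS1, NARS1 and TARS1. They stood in 0 of 6 other cytosolic enzymes, 0 of 3 scaffold genes and 1 of 14 mitochondrial enzymes, YARS2. Of all 35116 windows, 3.62% held a match, and of all 27305 genes with a window, 4.46%. A match describes letters only, and the targets were sorted by knowledge that includes such sites. The windows below surround each match in a measured member, in the direction of the gene, with the match in capitals; 60 bases are shown where the match lies wholly before the gene start and 30 where it touches or follows it.
AARS1 (chr16:70289660-70289719, minus strand): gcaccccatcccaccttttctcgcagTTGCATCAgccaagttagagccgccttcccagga
GARS1 (chr7:30594818-30594877, plus strand): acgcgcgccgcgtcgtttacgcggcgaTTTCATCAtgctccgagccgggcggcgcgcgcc
IARS1 (chr9:92293698-92293757, minus strand): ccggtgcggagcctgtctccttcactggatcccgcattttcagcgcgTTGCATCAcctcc
CARS1 (chr11:3057407-3057436, minus strand): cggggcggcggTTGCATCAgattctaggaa
TARS1 (chr5:33440956-33440985, plus strand): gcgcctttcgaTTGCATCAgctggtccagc
NARS1 (chr18:57621804-57621833, minus strand): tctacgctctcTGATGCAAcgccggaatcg
YARS2 (chr12:32756061-32756120, minus strand): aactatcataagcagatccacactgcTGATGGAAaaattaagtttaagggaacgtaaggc
The matches of AARS1, GARS1 and IARS1 begin 187, 33 and 13 bases before the gene start, and that of CARS1 begins 2 bases before it. AARS1, CARS1, IARS1 and TARS1 share the letters TTGCATCA, which NARS1 holds on the other strand, while GARS1 has TTTCATCA. EPRS1, SARS1 and WARS1 differed with serum and are not among the genes with a match. Not every target had a window, so this can also mean that no window was at hand.

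Of the 6 other cytosolic enzymes measured, 5 had a serum difference above 0, with a median of 0.15, where 48.1% of all genes were above 0. The exception was VARS1, at -0.39 with overlap, a size like that of CARS1 and WARS1 among the targets. Its root mean square difference among the 5 arrays was 0.53. On the deposited scale 1 of the 6 lay above the 5 arrays without overlap, KARS1, the lysine enzyme, where 13.5% of all genes did. With each array centred on its median, 4 did, FARSA, FARSB, HARS1 and KARS1, where 26.4% of all genes did. The signals of KARS1 were 50071 to 52244 in the 5 arrays, 53888 in control serum and 55041 in pycnogenol serum, a serum difference of 0.09. Its second probe set, at 14914 to 20657 in the 5 arrays, read 21377 and 17649 with serum and did overlap. HARS1, the histidine enzyme, read 6601 untreated, 7415 with catechin, 6516 with epicatechin, 7273 with taxifolin and 8457 with resveratrol, against 8638 with control and 8115 with pycnogenol serum, a difference of 0.21 with overlap. The 2 subunits of the phenylalanine enzyme, FARSA and FARSB, were at 0.18 and 0.13, both with overlap.

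RARS1, the arginine enzyme, had the widest spread of all members. It read 7137 untreated, 7473 with catechin, 4558 with epicatechin, 10429.6 with taxifolin and 4149.9 with resveratrol, then 20201 with control serum and 5802 with pycnogenol serum. Control serum alone stood above every other array, while pycnogenol serum lay inside the range of the 5. Already without test serum the highest and lowest arrays differed by 1.33 on the log2 scale, a range that 0.556% of the 9888 genes reached or passed, and the median range over all genes was 0.32. On main probe sets, RARS1 was the 1 member past 2-fold in the 6 comparisons of 2 arrays, at 1.501 for control serum against untreated and -1.80 for pycnogenol against control serum. Its serum difference of 0.76 was 1.66 with control serum alone and -0.14 with pycnogenol serum alone. The comparisons share the control serum array, and pycnogenol serum against untreated gave -0.30. A single probe set, assigned to this gene alone, read RARS1, so no second reading was at hand. VARS1, the valine enzyme, had the next widest range, 0.95, with 3571 in epicatechin and 2719 in the untreated culture. It read 2249 with taxifolin and 2067 with resveratrol. Its lowest signals, 1852 with catechin, 1853 with control serum and 1854 with pycnogenol serum, were almost equal.

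**Figure D3:**
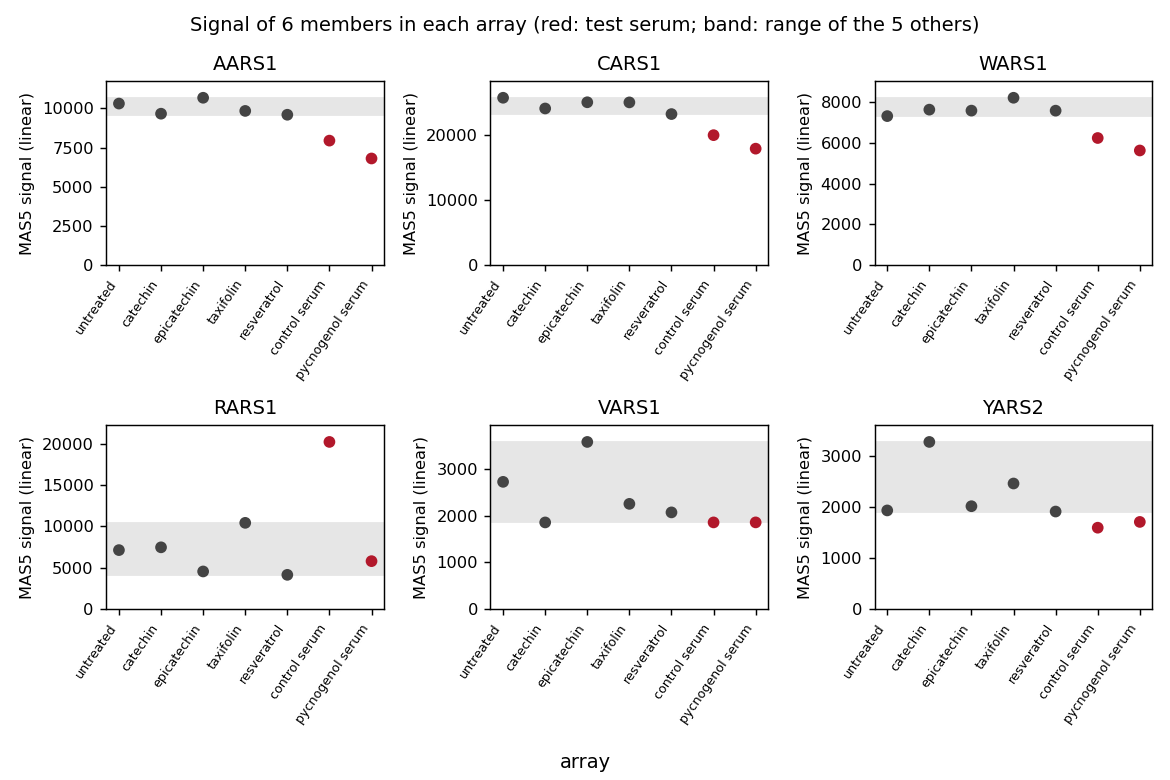
MAS5 signal (linear axis from 0) of AARS1, CARS1, WARS1, RARS1, VARS1 and YARS2 in each array, with test serum in red and the range of the 5 other arrays as a grey band. In AARS1, CARS1 and WARS1 both red points lie below a narrow band, whereas RARS1 has 1 red point at 20201 far above a band from 4149.9 to 10429.6 and the other inside it.

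AIMP1, the measured scaffold protein of the complex, which also gives rise to a secreted cytokine, differed by 0.02 on its brightest probe set. It read 11791 untreated and 12158, 11215, 11304 and 11294 with catechin, epicatechin, taxifolin and resveratrol. With control and pycnogenol serum it read 12061 and 11293. Its other 2 probe sets had both serum arrays above the 5, at 0.30 and 0.27. The signals of the second were 5772 to 6819.8 without test serum and 7806 in both serum arrays. In the multi-synthetase complex, of the 6 measured members EPRS1 and IARS1 lay below the 5 arrays, KARS1 lay above, and LARS1, RARS1 and AIMP1 overlapped, where 16.1% of all genes lay below and 13.5% above. With centring IARS1 overlapped too, where 6.12% of all genes lay below and 26.4% above.

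Mitochondrial enzymes were spread around 0. Of 15 measured, 8 had a serum difference above 0 and 7 below, with a median of 0.023 and a range of -0.46 to 0.46. Both serum arrays lay above the 5 others for EARS2 and MARS2 and below them for YARS2, against the 13.5% and 16.1% of all genes. With centring 4 lay above, CARS2, EARS2, LARS2 and MARS2, and 0 below, where 26.4% and 6.12% of all genes did. MARS2, the methionine enzyme, read 661 untreated and 539, 568, 534 and 761 with catechin, epicatechin, taxifolin and resveratrol, then 897 with control and 780.1 with pycnogenol serum, a difference of 0.46 against a root mean square of 0.31 among the 5. YARS2, the tyrosine enzyme, read 1931 untreated and 3269, 2013, 2457 and 1909 with the compounds in that order, then 1593 and 1706 with control and pycnogenol serum. Its difference of -0.46 was about the size of the root mean square of 0.47 among the 5 arrays, which the catechin array widened. PARS2, the proline enzyme, was near the filter: 394 untreated, 311, 345, 245 and 286 with the compounds, 206 with control serum and 329.98 with pycnogenol serum. Its serum difference of -0.26 rested on control serum: it was -0.60 with control serum alone and 0.08 with pycnogenol serum alone. For the glutamate enzyme EARS2 the serum arrays, both at 1183, stood just above a range of 1048 to 1144.

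The known ATF4 targets with a measured mitochondrial enzyme for the same amino acid can be set side by side by amino acid. For alanine, AARS1 was at -0.45 and AARS2 at 0.12. EPRS1, at -0.36, has 2 mitochondrial counterparts, EARS2 for glutamate at 0.11 and PARS2 for proline at -0.26. Leucine had LARS1 at 0.15 and LARS2 at 0.16, and asparagine had NARS1 at -0.15 and NARS2 at -0.04. For cysteine, CARS1 was at -0.38 and CARS2 at 0.11, with -0.29 on the second CARS2 probe set. The tryptophan pair had WARS1 at -0.37 and WARS2 at -0.05, and the isoleucine pair had IARS1 at -0.15 and IARS2 at 0.02. The serine pair had SARS1 at -0.28 and SARS2 at -0.12, and the tyrosine pair, with YARS1 at -0.21 and YARS2 at -0.46, was larger on the mitochondrial side. These are differences of log2 signal between arrays, and no level of 1 probe set was compared with another.

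With control serum against the untreated culture, 10 of 11 known ATF4 targets were below 0 with a median of -0.23, where 48.7% of all genes were below 0 and their median was 0.0076. AARS1 and YARS1, both at -0.38, and CARS1 at -0.37 were lowest. Centring each array on its median moved the median of all genes to 0.18 and that of the targets to -0.061. Relative to all genes the targets were at -0.24, a value that centring cannot change. Other cytosolic enzymes had a median of 0.18 with 5 of 6 above 0, and mitochondrial enzymes one of 0.048 with 11 of 15 above 0, where 51.3% of all genes were above 0. RARS1 was the 1 member of 33 past 2-fold, and 1.2% of all genes were. PARS2 followed at -0.93 on signals of 206 and 394. A further LARS1 probe set was also past 2-fold, with 826 in control serum and 1697 in the untreated culture, a difference of -1.04, where the main LARS1 probe set was at 0.31.

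With pycnogenol serum against control serum, 10 of 11 targets were again below 0, now all but YARS1 at 0.15, and the median was -0.15, where all genes had 48.4% below 0 and a median of 0.0083. LARS1 at -0.31 and AARS1 at -0.22 were lowest. Further EPRS1 probe sets above the filter, at 0.29 and 0.37, had the other direction from its main one, at -0.19. Those of LARS1 were at -0.0052, -0.27 and 0.78. The further probe sets of CARS1, at -0.14, -0.25 and -0.23, of SARS1, at -0.90, and of WARS1, at -0.08, were below 0. Mitochondrial enzymes had a median of -0.00073 with 8 of 15 below 0. Again RARS1 alone was past 2-fold, and 0.536% of all genes were. Since both comparisons use the control serum array, the values against the untreated array are given too: with pycnogenol serum the targets had a median of -0.35, with AARS1 at -0.60, CARS1 and EPRS1 both at -0.52 and SARS1 at -0.40. Second probe sets had the direction of the first in 13 of 16 members for control serum against untreated and in 8 of 16 for pycnogenol against control serum.

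**Figure D4:**
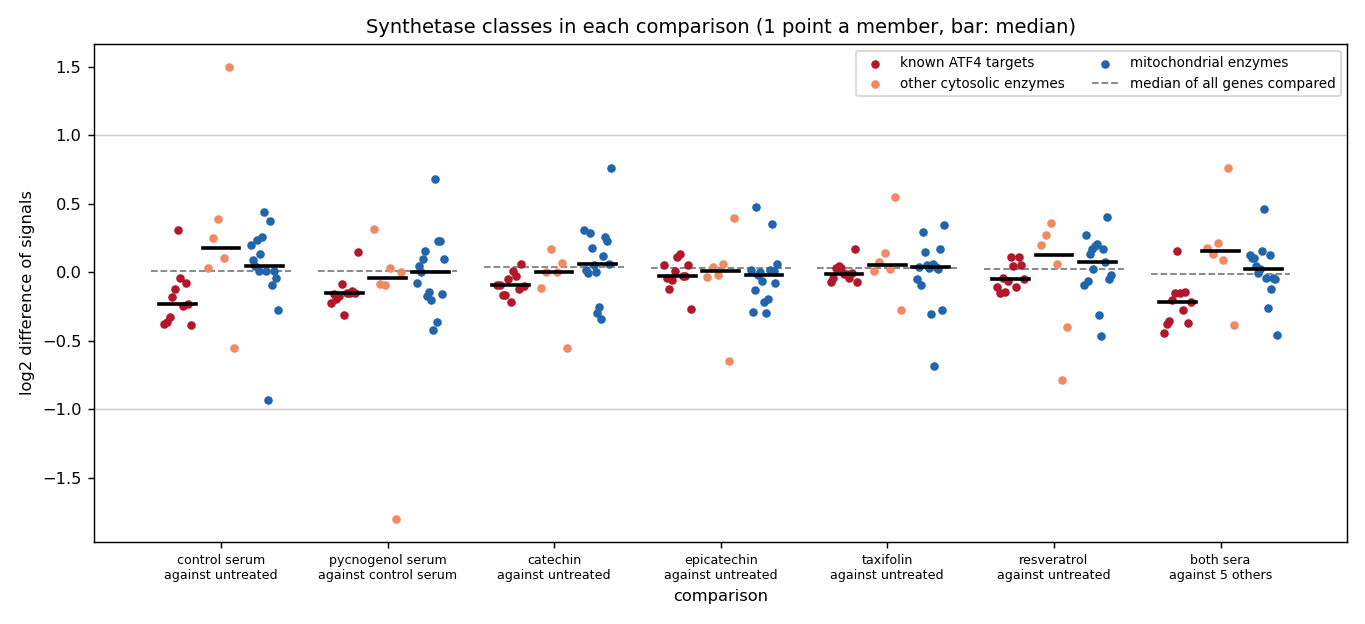
Log2 differences of signals for each member (points) by class in the 7 comparisons, with black bars at the class medians and a dashed line at the median of all genes compared. The known ATF4 targets have medians of -0.23, -0.15 and -0.21 in the 3 comparisons with serum and lie closer to 0 with the compounds, and the isolated points near 1.5 and -1.8 are RARS1.

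No member differed by 2-fold with any of the 4 compounds on its main probe set, and of all genes 0.455% did with catechin, 0.314% with epicatechin, 0.465% with taxifolin and 0.728% with resveratrol. The targets' medians were -0.096 with catechin, -0.029 with epicatechin, -0.011 with taxifolin and -0.049 with resveratrol. Those of epicatechin and taxifolin both turned to 0.046 when each array was centred on its median, where all genes had 0.11 and 0.089. Without centring, all genes had medians of 0.035, 0.032, 0.032 and 0.025 in the order of the 4 compounds above. The most targets below 0 were 9 of 11, with catechin, where 42.4% of all genes lay below 0. The largest single differences were RARS1 at -0.78 with resveratrol, YARS2 at 0.76 with catechin, PARS2 at -0.68 with taxifolin and RARS1 at -0.65 with epicatechin. Epicatechin and taxifolin, a flavan-3-ol and a dihydroflavonol, shared the dose of 6.25 ng/ml and the time of 2 h, and catechin, the diastereomer of epicatechin, was given at 11.25 ng/ml. With 1 array each there is no interval for a difference between compounds. RARS1 with taxifolin was at 0.55, the opposite side from epicatechin, and VARS1 was at 0.39 with epicatechin and -0.27 with taxifolin.

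Secondary probe sets of EPRS1 gave larger compound differences than its main one. The second read 15914 in the untreated culture and 7815 with catechin, a difference of -1.03, where the main probe set gave -0.17. The third read 3039 untreated and 1119 with resveratrol, at -1.44, where the main one gave -0.04. On both of these probe sets the untreated array was the highest of the 7. Second probe sets had the direction of the first in 10 of 16 members with catechin, 9 with epicatechin, 4 with taxifolin and 10 with resveratrol.

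ATF4 and genes of its branch were listed with the genes that sense uncharged tRNA, 16 in all. Both serum arrays lay below the 5 others for 10 of them, where 16.1% of all genes did, and above for 1 (EIF2S1, the alpha subunit of initiation factor eIF2), where 13.5% did. With each array centred on its median, 6 lay below and 2 above, against 6.12% and 26.4%. On the deposited scale 14 differences were below 0 with a median of -0.35, where all genes had -0.010. ATF4 itself read 41427 untreated, 42991 with catechin, 43034 with epicatechin, 45462 with taxifolin and 37361 with resveratrol, then 33855 in control serum and 23348 in pycnogenol serum, which makes a difference of -0.58. The glutathione-degrading enzyme CHAC1 was at -1.88, with a pycnogenol serum signal of 143 that lay under the filter, the pseudokinase TRIB3 at -1.45 and the lipoprotein receptor VLDLR at -1.34. With DDIT3, a stress-induced transcription factor, at -1.23, these made 4 of 16 genes lower by at least 2-fold, where 0.597% of all genes were. That count rested on pycnogenol serum: with control serum alone against the 5 arrays only TRIB3, at -1.17, was lower by 2-fold, where 0.445% of all genes were, while VLDLR was at -0.84, DDIT3 at -0.73 and CHAC1 at -0.43. With pycnogenol serum alone 6 were, where 1.19% of all genes were, and CHAC1 was at -3.34. The sensor kinase EIF2AK4, at -0.19, and its partner GCN1, at 0.11, both overlapped. ASNS, asparagine synthetase, was at -0.28, a size like that of the synthetases.

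Of the genes that deliver, edit or modify charged tRNA, 14 of 20 were measured, with a median of -0.067, where all genes had -0.010. Both serum arrays lay below the 5 others for SEPSECS, PSTK, TRNT1 and EEF1D and above them for QRSL1, a subunit of the mitochondrial glutamine amidotransferase, so 4 of 14 lay below and 1 above, where 16.1% and 13.5% of all genes did. With centring, SEPSECS and PSTK alone lay below, and EEF1A1 and QRSL1 above, where 6.12% and 26.4% of all genes did. SEPSECS, which completes selenocysteine on its tRNA, read 789.7 untreated and 884, 861, 783 and 721 with catechin, epicatechin, taxifolin and resveratrol, then 517 with control and 549.9 with pycnogenol serum, a difference of -0.60. PSTK, the kinase of the step before, read 937 untreated and 921, 966, 784 and 1076 with the compounds, then 692 and 677, a difference of -0.45. TRNT1, which adds the CCA end to tRNA, was at -0.31, and the elongation factors EEF1A1 at 0.10 and TUFM at -0.04 overlapped.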

How the data were processed

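The deposited table held MAS5 signal intensity for 54675 probe sets on each of 7 Affymetrix arrays, 1 array a group. The authors computed it with MAS5, per the submitters' processing notes; its version and detection calls are not given in the sources used here. Leaving out the lowest and highest 2% of signals, every array had a mean of 1000.1. Probe sets were named with the platform annotation: 41097 had 1 gene, 1801 several genes and 11777 no entry. Signals under the 25th percentile, 34.9, were set to that value before taking log2. The brightest probe set stood for a gene. Comparisons covered the genes whose mean over the arrays reached the median gene's, 8.07. In "A against B" the log2 signal of B was subtracted from that of A, and counts by size used 2-fold. No test was possible with 1 array a group. The arithmetic of differences and counts was tested on simulated data with known fold changes, which says nothing about chance.

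The members, lists and comparisons were chosen with earlier results of these data known, and the promoter letters after the values were seen. Members were given in every array if they differed by 2-fold between 2 arrays or were among the 3 largest serum differences of their class; of each partner list the 3 largest were named. ATF4, DDIT3 and other single genes were added after their values were seen. Alternatives changed the scaling, floor, filter, probe set rule, threshold and reference array. Python 3.11.15, numpy 2.4.6 and pandas 2.3.3 were used.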

Additional observations from a re-analysis of the deposited data

How the results depend on the processing

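Of the medians and counts over classes, 284 values under alternatives stayed within their tolerance and 44 did not. Of the single members' values 611 stayed and 51 moved. Changing the floor or dropping the filter left the members' main signals as they were, so those member values and class medians could not move, yet they count as stayed. The tolerance was the root mean square difference among the 5 arrays without test serum, and for counts 1.5 times. Of 207 class medians under alternatives, 18 had another sign than the reported one, which was at most 0.075 in size in each of them. Centring each array on its median gave, for control serum against untreated, medians of -0.061 for the known ATF4 targets, 0.35 for other cytosolic enzymes and 0.22 for mitochondrial enzymes. It gave -0.028 (targets) and 0.13 (mitochondrial) with catechin, 0.046 and 0.054 with epicatechin, both with their sign changed, and -0.14 and -0.016 with resveratrol, the last with its sign changed. With this centring all genes had medians of 0.18 with control serum, 0.10 with catechin, 0.11 with epicatechin and -0.067 with resveratrol. In both serum arrays against the 5 others centring gave -0.093, 0.27 and 0.14 for the 3 classes. There 3 targets and 0 mitochondrial enzymes were lower without overlap, where 6.12% of all genes were and their median was 0.11. With the mean of the other 4 arrays as reference, the mitochondrial median was -0.00078 with resveratrol, again with its sign changed, and -0.086 with epicatechin. The filter at the 75th percentile left 7 mitochondrial enzymes, with medians of 0.14 (control serum), -0.14 (pycnogenol against control serum) and 0.17 (resveratrol) and 0 lower without overlap. The mean of all probe sets gave other cytosolic medians of -0.14 (pycnogenol against control serum) and -0.099 (catechin, sign changed), and a mitochondrial median of -0.036 (both serum arrays, sign changed). With that mean 1 member, VARS1, was at 2-fold with catechin and with resveratrol. A second VARS1 probe set in it lay under the filter, at 65 with catechin, 41 with resveratrol and 206 untreated. The main VARS1 probe set gave -0.55 with catechin and -0.40 with resveratrol. Without probe sets ending in _x_at or _s_at the targets' median over both serum arrays was -0.37 with 7 targets left, and 2 members, YARS1 and RARS1, were at 2-fold with control serum; the YARS1 signals there lay under 269. At 1.5-fold, 2 members (RARS1 and PARS2) passed in both comparisons with control serum. Of all 9888 genes, 313 were higher and 461 lower with control serum, and 188 and 231 with pycnogenol against control serum. With each compound and in both serum arrays 1 member passed. All genes higher and lower were 196 and 155 with catechin, 147 and 132 with epicatechin, 144 and 182 with taxifolin, and 226 and 215 with resveratrol. In both serum arrays 148 of all genes were higher and 312 lower. With the untreated array as reference pycnogenol serum gave -0.35, 0.15 and 0.12, the last 2 with their sign changed, and 0 members at 2-fold. Centring shifts all genes of an array alike, and some alternatives left fewer members. Apart from these, the cause was not tested. Leaving out 1 array at a time, chosen after the data were seen, gave targets' medians from -0.29 to -0.19 with 8 to 9 lower without overlap, mitochondrial medians from -0.0047 to 0.084 with 1 to 3 lower, other cytosolic medians from 0.098 to 0.20 with 0 to 1 lower, and 0 to 1 members at 2-fold. Of all genes 17.7% to 19.2% were lower without overlap when 1 of the 5 arrays was left out, 27.6% without control serum and 26.6% without pycnogenol serum; the 3 mitochondrial enzymes came from leaving out either serum array. No paired analysis was possible because each group has 1 array. The number of arrays limits the precision.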
